A study of Mus musculus with 16 samples.

Results

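Knockdown of Tfap2c was compared with a GFP control in mouse embryos of the 8-cell stage, as 4 libraries against 4 out of 16 in the series. Embryos of the Tfap2cKD group received double-stranded RNA (dsRNA) against Tfap2c at the zygote stage, and embryos of the dsGFP group received dsRNA against GFP, a jellyfish protein gene that the embryos lack. Both groups were F1 crosses of hybrid parents cultured in KSOM medium, and the labels name no other allele or agent. Each library pooled 10 embryos, about 80 cells. Libraries A1 and A2 of each group came from C57BL/6J×CBA/J mothers and B1 and B2 from C57BL/6J×DBA/2J mothers. Fathers are labelled as C57BL/6J×DBA hybrids with a DBA substrain number that changes from library to library, and the labels do not say whether that is intended. The other 8 libraries, used here only beside these results, received dsRNA against both Tfap2c and Tead4 (DoubleKD) or against Tead4 alone (Tead4KD). The 8 libraries of the comparison were chosen by their labels, and 11422 of the 43437 genes in the table reached 1 FPKM in 4 or more of all 16 libraries and were tested. FPKM scales a gene's fragments to the length of its transcript and the size of the library. Values of a group given in a row are those of libraries A1, A2, B1 and B2, in that order, and a value of 0 is as listed.

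Tfap2c encodes AP-2γ, a transcription factor of the AP-2 family, which binds as a dimer to GC-rich palindromes. In the mouse embryo it is known as a regulator of the trophectoderm, the outer lineage that forms the placenta, and it is already present in cleavage stages. At the 8-cell stage blastomeres flatten on each other, acquire an apical domain and are about to give rise to outer and inner cells. The study asked how the timing of this first lineage decision is set, by knockdown of Tfap2c and the TEAD factor gene Tead4. Injected dsRNA lowers the matching mRNA by RNA interference, so the embryos were depleted, not null.

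No measure of the libraries passed a test between the groups. FPKM sums ran from 826817 to 874436 in Tfap2cKD and from 806229 to 867304 in dsGFP (exact two-sided permutation p = 0.914). Mitochondrially encoded genes took 8.597 ± 1.06% of the FPKM in Tfap2cKD and 9.95 ± 1.45% in dsGFP (SD, n = 4, exact permutation p = 0.2). Read counts are not known, and a relative depth estimated from the steps between low values gave no call either (exact permutation p = 0.743). Whether the pools of a group go back to separate matings or cultures is not stated, and p-values then reflect only how far these pools differed. Libraries of the same group and cross correlated across genes at 0.969 to 0.976 (Pearson, log2 values), and libraries of the same cross but different group at 0.934 to 0.953. Library Tfap2cKD B1 stood somewhat apart, with the highest value of the 4 Tfap2cKD libraries in 62 of the 96 genes that were lower over 4-fold (64.6%), against 24.2% of all genes tested. Counts of changed genes and of list members were also taken without it, and a count is given without it where it moved by 1.5 times or more. Cumulus cell markers (11 genes) and sperm markers (6 genes) were all under 1 FPKM in all 8 libraries.

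Tfap2c mRNA (chromosome 2, 172545678 to 172558622 of mm10, ENSMUSG00000028640) stood at 13.9, 15.4, 16.1 and 17.9 FPKM in Tfap2cKD, against 43.2, 38.8, 28.3 and 32.5 FPKM in dsGFP. All 4 Tfap2cKD libraries lay below all 4 dsGFP libraries, and the mean was 44.3% of the dsGFP mean. The log2 change was -1.11 ± 0.11 (SE, adjusted p = 8.62e-06), and the exact permutation p was 0.0286, the smallest that 4 against 4 can give. Tead4 (chromosome 6, 128227143 to 128300813) stood at 19, 25.9, 37.4 and 30.8 FPKM in Tfap2cKD, against 58.4, 46.5, 47.7 and 41.8 FPKM in dsGFP. The groups did not overlap, though library B1 of Tfap2cKD came close to the lowest dsGFP library. Its log2 change of -0.79 (adjusted p = 0.0192) did not pass without Tfap2cKD A1 (0.0594), dsGFP A1 (0.0692) or dsGFP A2 (0.0507), nor when no genes were filtered (0.0541).

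**Figure D1:**
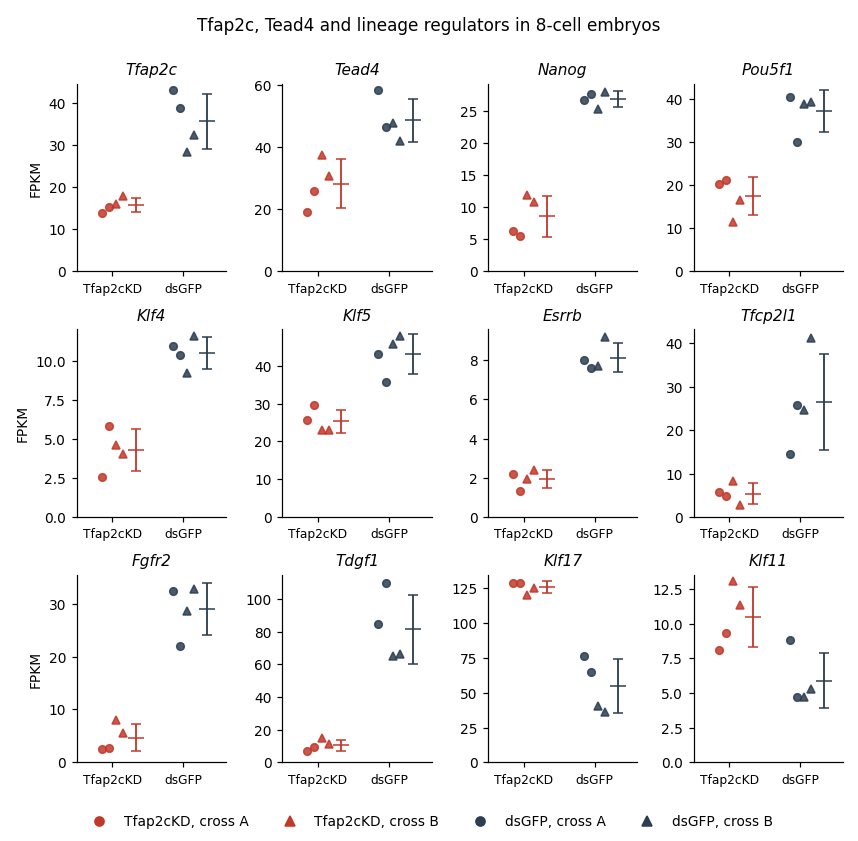
FPKM in each library (circles, cross A; triangles, cross B) of Tfap2cKD on the left of each panel and dsGFP on the right, with the mean and SD (n = 4) beside the points; every axis starts at 0. Tfap2c stands at 13.9 to 17.9 FPKM in Tfap2cKD and at 28.3 to 43.2 FPKM in dsGFP, and the first 10 panels are lower in Tfap2cKD while Klf17 and Klf11 are higher.

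At a Benjamini-Hochberg adjusted p under 0.05, 29.6% of the genes tested changed (limma on log2(FPKM + 1), with cross as a covariate). Of these, 1866 (16.3%) were higher in Tfap2cKD and 1511 (13.2%) lower. The larger changes were mostly falls. Over 2-fold, 310 genes (2.71%) were higher and 461 (4.04%) lower, and over 4-fold 12 were higher and 96 lower. The smaller changes were mostly rises, with 810 higher and 525 lower by less than 1.5-fold. In 12.2% of all genes tested the 4 Tfap2cKD libraries all lay above the 4 dsGFP libraries, and in 9.9% all below. The median log2 change over all genes was 0.06, and median-ratio rescaling, which removes it, gave 1537 higher and 1807 lower. Counts of list members below stand beside these shares of all genes tested, and are of the values as deposited, without this rescaling. Genes named from a list were mostly its called members with the lowest p. That choice favours genes whose groups do not overlap. Without Tfap2cKD B1, 1649 genes were higher and 1247 lower, and 1487 and 1195 of these had the same call with all libraries. No gene's change differed between the crosses at an adjusted p under 0.05 (limma interaction, lowest 0.0526). At an unadjusted p under 0.05, 1888 genes (16.5%) did, more than the share of 0.05 that goes with no difference. The lack of adjusted calls thus does not show that both crosses responded alike.

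The same dsRNA was tested again in the other 8 libraries, as DoubleKD against Tead4KD, which share no sample with the comparison above. There 1242 genes (10.9%) were higher and 1470 (12.9%) lower. Of the 1866 genes higher in Tfap2cKD, 846 also passed as higher in DoubleKD and 13 as lower. Of the 1511 genes lower in Tfap2cKD, 940 also passed as lower and 7 as higher. Among changes over 2-fold, 360 of the 461 falls and 210 of the 310 rises passed in the same direction. The median log2 change of the genes called lower was -0.73 in Tfap2cKD and -0.56 in DoubleKD, and that of the genes called higher was 0.64 in Tfap2cKD and 0.40 in DoubleKD. As these genes were called in Tfap2cKD, the selection itself tends to make the Tfap2cKD medians the larger ones. Both fits share 1 estimate of the spread. Some genes named below with no word on DoubleKD did not pass there, Nr5a2, Tpm4, Atp6v1c2 and Pkm among them.

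**Figure D2:**
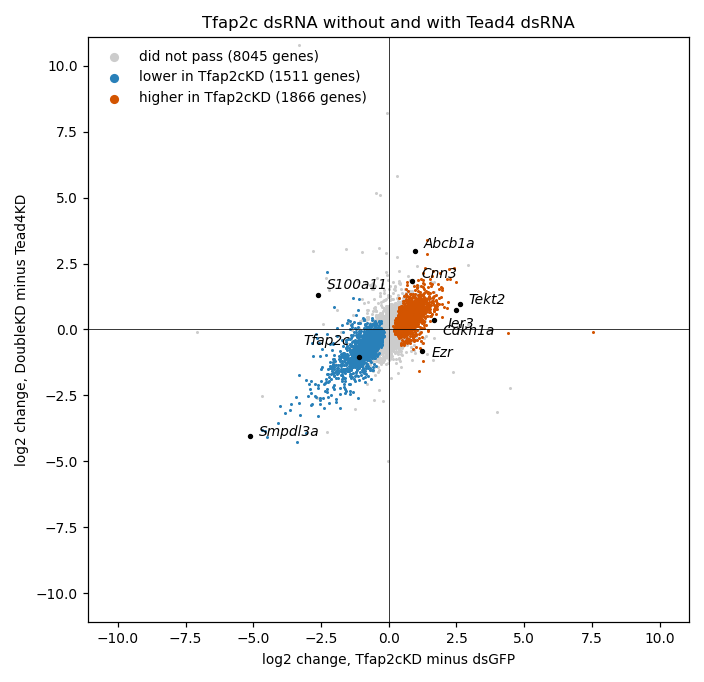
Each point is 1 of the 11422 genes tested, with the log2 change in Tfap2cKD against dsGFP on the horizontal axis and in DoubleKD against Tead4KD on the vertical axis; blue genes were lower and orange genes higher in Tfap2cKD, and grey genes did not pass. Most coloured points lie at the lower left and upper right; Ezr and S100a11 are among those that do not.

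The 15 largest falls among genes with at least 5 FPKM in a group and no overlap include Smpdl3a, Ly6a, Dap, Crip1, Cthrc1, Lect1, Calm5, Gsto1, Plp2, Gprc5a, Abhd11os, Rhox9, Zfp947 and Pinlyp. All 15 also fell in DoubleKD against Tead4KD. Ly6a is the GPI-anchored antigen Sca-1, Plp2 a membrane proteolipid and Gprc5a an orphan receptor, while Cthrc1, Lect1 and Smpdl3a encode secreted or luminal proteins. Sequences before the start of Crip1 and Abhd11os are shown here because, of the 8 of these genes with an entry in the RefSeq promoter table, these 2 hold the AP-2 palindrome GCCNNNGGC in the 250 bases before the start. Capitals mark the palindrome, which reads the same on both strands.
Crip1 (GRCm38.p6, chr12:113151762-113152011, plus strand): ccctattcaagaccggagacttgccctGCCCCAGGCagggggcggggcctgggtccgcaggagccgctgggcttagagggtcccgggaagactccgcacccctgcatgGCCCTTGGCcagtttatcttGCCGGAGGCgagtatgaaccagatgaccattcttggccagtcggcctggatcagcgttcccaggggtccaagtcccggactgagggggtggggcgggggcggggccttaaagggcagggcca
Abhd11os (GRCm38.p6, chr5:135013158-135013407, minus strand): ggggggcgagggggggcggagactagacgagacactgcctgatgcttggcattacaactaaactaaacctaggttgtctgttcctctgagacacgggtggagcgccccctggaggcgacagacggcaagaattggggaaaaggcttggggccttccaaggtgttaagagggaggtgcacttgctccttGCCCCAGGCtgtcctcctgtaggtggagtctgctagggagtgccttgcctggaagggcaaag
The 3 palindromes of Crip1 begin 223, 142 and 122 bases before its start, and that of Abhd11os 62 bases before.

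Changed and unchanged genes held the palindrome in similar shares. It was in 19.5% of the windows of genes that were lower, in 19.2% of those lower over 2-fold, in 20% of those higher and in 19.6% of those that did not pass. Over all genes tested the share was 19.6%, against 13.7% of all 32851 windows in the RefSeq set. None of the 13 windows of the 15 largest rises held it. These shares describe letters in 250 bases and say nothing of binding.

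Crip1, which encodes a small LIM-domain protein, stood at 0, 0.326, 4.78 and 4.32 FPKM in Tfap2cKD, against 29.3, 19.1, 69.6 and 76.2 FPKM in dsGFP. Its cross B libraries were the higher ones in both groups. Abhd11os, a transcript opposite Abhd11, stood at 0.697, 0.938, 3.8 and 1.49 FPKM in Tfap2cKD, against 19.6, 16.7, 20.4 and 22.6 FPKM in dsGFP. The library method is not stated to keep strand, so reads of the antisense partner cannot be told apart from its own. Smpdl3a stood at 1.08, 1.25, 12.8 and 1.597 FPKM in Tfap2cKD, against 108, 102, 138 and 165 FPKM in dsGFP, and 3 of the 4 Tfap2cKD libraries were under 2 FPKM while B1 was not. Dap, which encodes a proline-rich regulator of autophagy, stood at 0.974, 0.153, 3.81 and 0.311 FPKM in Tfap2cKD, against 36.6, 35.5, 50.4 and 60.5 FPKM in dsGFP. Its log2 change was -4.55 ± 0.36 (adjusted p = 9.02e-07). Ly6a stood at 2.26, 1.97, 27.7 and 17.7 FPKM in Tfap2cKD, against 142, 174, 322 and 288 FPKM in dsGFP, and again cross B was the higher cross in both groups. Calm5 was the least even of the 15, with no more than 0.364 FPKM in A1, A2 and B2 and 9.35 FPKM in B1 of Tfap2cKD, against 12.5, 14.7, 43.1 and 17.8 FPKM in dsGFP (adjusted p = 0.000512).

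Cthrc1 averaged 6.48 ± 4.74 FPKM in Tfap2cKD and 81.2 ± 19.9 FPKM in dsGFP, and Lect1, which encodes chondromodulin, 2.26 ± 1.78 FPKM in Tfap2cKD and 36.8 ± 18.4 FPKM in dsGFP. Gsto1, a glutathione transferase gene, averaged 45.1 ± 43.1 FPKM in Tfap2cKD and 364 ± 198 FPKM in dsGFP. Rhox9, an X-linked homeobox gene, was low in all Tfap2cKD libraries, at 0.0994, 1.05, 0.447 and 0 FPKM in Tfap2cKD, against 14.2, 12.8, 6.37 and 8.63 FPKM in dsGFP. Its log2 change was -3.04 in Tfap2cKD and -3.91 in DoubleKD. Log2 changes of low genes depend on the pseudocount: with 0.1 in place of 1, that of Rhox9 was -4.92, of Calm5 -5.41 and of Ier3 4.31, with the same calls. Plp2, Gprc5a, Zfp947 and Pinlyp had log2 changes from -3.30 to -2.93.

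The 15 largest rises, chosen by the same rule without overlap, were smaller, with log2 changes from 1.78 to 2.62. Tekt2, which encodes a tektin of the ciliary axoneme, stood at 39.01, 43.5, 53.3 and 40.7 FPKM in Tfap2cKD, against 7.02, 10.4, 5.63 and 3.64 FPKM in dsGFP. Mixl1, a homeobox gene of the later primitive streak, stood at 16.9, 23.3, 34.4 and 40.1 FPKM in Tfap2cKD, against 8.34, 9.06, 5.002 and 5.404 FPKM in dsGFP. Brdt, a bromodomain gene known from the male germ line, averaged 44.99 ± 8.24 FPKM in Tfap2cKD and 12.1 ± 6.05 FPKM in dsGFP. The immediate early gene Ier3 averaged 6.28 ± 2.62 FPKM in Tfap2cKD and 0.218 ± 0.1304 FPKM in dsGFP. That none of these groups of values overlapped follows from the rule.

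Zfyve20 (Rbsn in RefSeq), which encodes the endosomal protein rabenosyn, stood at 46.8, 51.7, 50.6 and 50.9 FPKM in Tfap2cKD, against 19.4, 17.8, 8.86 and 6.68 FPKM in dsGFP. Stambp, which encodes the endosomal deubiquitinase AMSH, stood at 11.1, 10.9, 8.85 and 11.3 FPKM in Tfap2cKD, against 2.804, 2.62, 3.47 and 1.01 FPKM in dsGFP. All Tfap2cKD libraries of both genes lay above the dsGFP ones, again by the rule of choice. Uchl1, a ubiquitin hydrolase gene, stood at 88.9, 84.8, 15.4 and 9.12 FPKM in Tfap2cKD, against 7.95, 8.92, 8.61 and 2.997 FPKM in dsGFP, with far higher values in cross A of Tfap2cKD, and it did not pass without the cross covariate (adjusted p = 0.0911). Gsta2, a glutathione transferase gene, averaged 14.6 ± 3.68 FPKM in Tfap2cKD and 2.34 ± 1.13 FPKM in dsGFP. Hmgn3, a nucleosome-binding protein gene, averaged 15.2 ± 5.85 FPKM in Tfap2cKD and 3.65 ± 2.66 FPKM in dsGFP. Other rises were Abhd3, Narf, Bex2, Atp6ap1l and Ppp1r16b, with log2 changes from 1.78 to 1.86. Of the 15, 14 also passed as higher in DoubleKD against Tead4KD, the exception being Ier3 (adjusted p = 0.0502).

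**Figure D3:**
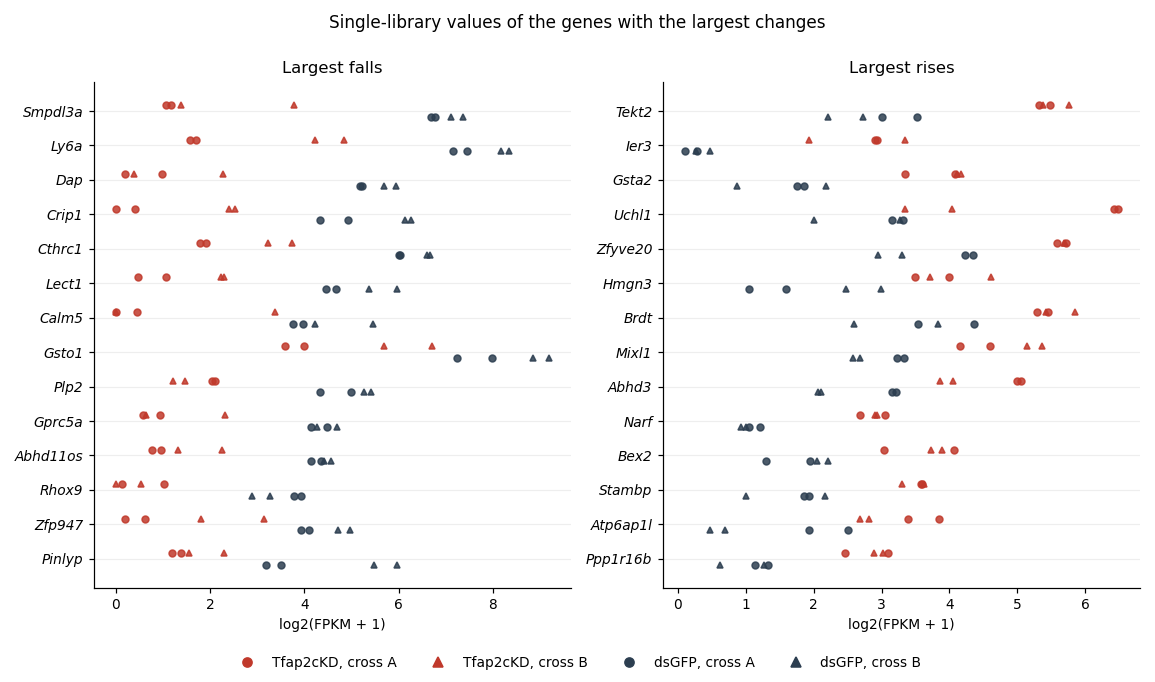
Values of log2(FPKM + 1) in each library for the largest falls (left) and the largest rises (right) named in the text, with Tfap2cKD in red above dsGFP in dark blue in each row, circles for cross A and triangles for cross B. No gene's groups overlap, as the choice of genes required. The Tfap2cKD B1 library lies to the right of the other Tfap2cKD libraries for Smpdl3a, at 12.8 FPKM, and for Calm5, at 9.35 FPKM.

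Transcription factors of the early lineages were more often lower than higher. Of 33 measured members of a list of lineage regulators, 15 fell and 4 rose, with a median log2 change of -0.39 beside 0.06 over all genes tested. The 15 include Tfap2c, whose fall follows from its being the target of the dsRNA. Nanog, a pluripotency factor, stood at 6.25, 5.47, 11.9 and 10.8 FPKM in Tfap2cKD, against 26.7, 27.7, 25.2 and 27.9 FPKM in dsGFP. Cross B libraries of Tfap2cKD held more Nanog than those of cross A, and no library reached the dsGFP range. The log2 change of Nanog in DoubleKD against Tead4KD was -0.94 and did not pass (limma adjusted p = 0.058). Pou5f1, which encodes Oct4, stood at 20.3, 21.2, 11.6 and 16.6 FPKM in Tfap2cKD, against 40.5, 30.02, 38.9 and 39.2 FPKM in dsGFP. Tfcp2l1, a factor of naive pluripotency, stood at 5.63, 4.74, 8.35 and 2.65 FPKM in Tfap2cKD, against 14.6, 25.7, 24.6 and 41.3 FPKM in dsGFP. Sox15 averaged 317 ± 25.2 FPKM in Tfap2cKD and 557 ± 31.7 FPKM in dsGFP. Dppa3, a maternal and germ-line factor that protects DNA methylation, averaged 6086 ± 660.1 FPKM in Tfap2cKD and 8269 ± 409 FPKM in dsGFP, and its log2 change of -0.45 (adjusted p = 0.000428) was -0.25 and did not pass after quantile normalization (0.12).

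Gata3, a trophectoderm factor, averaged 2.595 ± 1.24 FPKM in Tfap2cKD and 4.9 ± 2.56 FPKM in dsGFP and did not pass (adjusted p = 0.115, and 0.00863 without Tfap2cKD A1). The lineage factors Cdx2 and Sox2 lay below the filter, with no more than 0.341 and 0.358 FPKM in any of the 8 libraries. Fewer cells with a transcript and less of it per cell cannot be told apart in these pools, here and below.

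Krüppel-like factors split. Of 11 measured, 4 fell and 2 rose. Klf4 stood at 2.58, 5.81, 4.61 and 4.04 FPKM in Tfap2cKD, against 10.9, 10.3, 9.19 and 11.6 FPKM in dsGFP, and Klf5, needed for the trophectoderm, averaged 25.3 ± 3.12 FPKM in Tfap2cKD and 43.1 ± 5.22 FPKM in dsGFP. Klf10 averaged 3.36 ± 1.39 FPKM in Tfap2cKD and 10.6 ± 1.61 FPKM in dsGFP. Klf17, a factor of oocytes and cleavage embryos, was the steepest rise, at 129, 129, 120.4 and 125 FPKM in Tfap2cKD, against 76.5, 65.03, 40.3 and 36.4 FPKM in dsGFP. The Tfap2cKD libraries were nearly equal, while dsGFP libraries of cross B stood below those of cross A. Klf11 rose by 0.75 on the log2 scale with 1 dsGFP library inside the Tfap2cKD range. These 5 genes passed in the same direction in DoubleKD against Tead4KD.

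Among 16 nuclear receptors 3 fell and 1 rose (2 rose without Tfap2cKD B1), a share called of 25% beside 29.6% of all genes tested. Esrrb stood at 2.17, 1.33, 1.94 and 2.38 FPKM in Tfap2cKD, against 8.01, 7.62, 7.68 and 9.19 FPKM in dsGFP, a log2 change of -1.64 ± 0.16 (adjusted p = 6.67e-06). Nr5a2, which acts in embryonic genome activation and the trophectoderm, averaged 28.5 ± 3.49 FPKM in Tfap2cKD and 44.9 ± 9.49 FPKM in dsGFP, with slight overlap. Thra, a thyroid hormone receptor gene, was the rise, at 3.19 ± 1.05 FPKM in Tfap2cKD and 1.25 ± 0.412 FPKM in dsGFP.

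The FGF receptor gene Fgfr2 and a feedback inhibitor of FGF signalling fell. In the whole list of FGF and receptor tyrosine kinase genes, 10 of 39 fell and 10 rose. Fgfr2, the receptor that the trophectoderm uses, stood at 2.45, 2.78, 8.02 and 5.51 FPKM in Tfap2cKD, against 32.3, 22.1, 28.6 and 32.8 FPKM in dsGFP. Its log2 change was -2.49 ± 0.25 (adjusted p = 6.19e-06), and -1.97 in DoubleKD against Tead4KD. Spry2, a feedback inhibitor that FGF signalling induces, stood at 22.9, 24.9, 37.5 and 48.1 FPKM in Tfap2cKD, against 82.1, 89.3, 85.6 and 108 FPKM in dsGFP. Grb14, an adaptor that binds receptor tyrosine kinases, averaged 0.951 ± 0.578 FPKM in Tfap2cKD and 5.02 ± 0.9104 FPKM in dsGFP. Etv5, an ETS factor downstream of FGF, averaged 1.53 ± 0.944 FPKM in Tfap2cKD and 3.66 ± 1.52 FPKM in dsGFP, and did not pass without the cross covariate (adjusted p = 0.0585). The ligand Fgf4 stood at 3.36, 5.04, 7.49 and 4.86 FPKM in Tfap2cKD, against 2.36, 2.77, 3.62 and 2.69 FPKM in dsGFP, a small rise (adjusted p = 0.0215) that did not pass without Tfap2cKD B1 (0.0753), dsGFP A1 (0.0595) or dsGFP B2 (0.0578).

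Of 21 genes of the TGF-beta, Nodal and BMP pathways, 5 fell and 2 rose. Tdgf1, the Nodal co-receptor Cripto, stood at 6.74, 9.42, 14.8 and 10.99 FPKM in Tfap2cKD, against 84.7, 109.8, 64.9 and 66.5 FPKM in dsGFP. Gdf3, a Nodal-like ligand, stood at 1.46, 0.713, 1.59 and 0.217 FPKM in Tfap2cKD, against 7.23, 5.88, 15.5 and 22.7 FPKM in dsGFP, and in the other libraries its change was -0.18 (adjusted p = 0.826), a difference that did not pass (adjusted p = 0.111). Skil, which encodes the SMAD repressor SnoN, averaged 2.82 ± 0.687 FPKM in Tfap2cKD and 0.961 ± 0.186 FPKM in dsGFP. Among 20 Wnt and Notch genes 3 fell and 4 rose, while 7 fell and 0 rose in DoubleKD against Tead4KD. Tcf7l2, a partner of β-catenin, averaged 3.12 ± 1.86 FPKM in Tfap2cKD and 9.86 ± 3.06 FPKM in dsGFP. Hes1, a Notch target, averaged 0.226 ± 0.266 FPKM in Tfap2cKD and 1.66 ± 0.599 FPKM in dsGFP. Ctnnb1, which encodes β-catenin of junctions and Wnt signalling, rose by 0.50 on the log2 scale.

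Junction genes were lower in 8 and higher in 4 of 27 cases. Cldn4, a claudin of tight junctions that seal the trophectoderm, stood at 1.31, 1.24, 0.874 and 0.522 FPKM in Tfap2cKD, against 7.58, 6.19, 6.81 and 7.92 FPKM in dsGFP, with no overlap. Cldn5 went the other way, at 5.78, 6.699, 1.903 and 0.349 FPKM in Tfap2cKD, against 0.162, 0.274, 0.0995 and 0 FPKM in dsGFP, with the higher Tfap2cKD values in cross A. Ctnna1, which encodes α-catenin, averaged 22.5 ± 3.73 FPKM in Tfap2cKD and 31.7 ± 3.08 FPKM in dsGFP. Cdh1, which encodes E-cadherin, averaged 15.6 ± 1.73 FPKM in Tfap2cKD and 17.5 ± 1.52 FPKM in dsGFP and did not pass (adjusted p = 0.515). Nor did the trophectoderm keratins Krt8 (0.428) and Krt18 (0.845). The desmosomal plakophilin gene Pkp3 rose to 1.46 ± 0.15 FPKM in Tfap2cKD, against 0.374 ± 0.117 FPKM in dsGFP.

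Of 25 polarity genes 4 fell and 5 rose, but 5 fell and 2 rose without Tfap2cKD B1. Prkcz, an atypical protein kinase C of the apical domain, stood at 10.03, 6.84, 8.62 and 6.81 FPKM in Tfap2cKD, against 17.1, 14.4, 14.2 and 18.02 FPKM in dsGFP. Crb3, an apical Crumbs protein, averaged 106 ± 11.7 FPKM in Tfap2cKD and 168 ± 16.9 FPKM in dsGFP. Vangl1, of planar polarity, stood at 0.445, 0.711, 2.42 and 3.19 FPKM in Tfap2cKD, against 4.91, 5.61, 6.95 and 7.89 FPKM in dsGFP. Pard6b, the Par6 subunit of the apical complex, averaged 2.19 ± 0.541 FPKM in Tfap2cKD and 4.302 ± 1.09 FPKM in dsGFP (adjusted p = 0.0121, and 0.0768 without the cross covariate). All 4 genes were lower in all 4 libraries, which their choice by low p favours. Of these, Prkcz alone passed in DoubleKD against Tead4KD as well (adjusted p = 0.000517). Ezr, which encodes the microvillus linker ezrin, was higher, at 8.21, 7.13, 8.53 and 7.73 FPKM in Tfap2cKD, against 2.61, 3.52, 3.54 and 1.77 FPKM in dsGFP.

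Of 84 genes of actin, myosin and their binding proteins, 19 fell and 10 rose. Arpc1b, a subunit of the Arp2/3 complex that nucleates branched actin, stood at 0.162, 0.228, 1.69 and 0.257 FPKM in Tfap2cKD, against 5.49, 5.701, 12.2 and 8.81 FPKM in dsGFP. Tpm4, a tropomyosin gene, averaged 27.1 ± 4.96 FPKM in Tfap2cKD and 65.3 ± 8.55 FPKM in dsGFP, and Cap1, whose product recycles actin monomers, 11.2 ± 1.72 FPKM in Tfap2cKD and 23.4 ± 5.62 FPKM in dsGFP. Cnn3, a calponin gene, rose to 274 ± 35.3 FPKM in Tfap2cKD, against 149 ± 18.9 FPKM in dsGFP.

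Genes of the Hippo pathway and its targets were higher in 6 and lower in 3 of 24 cases. Ajuba, whose LIM-domain product inhibits the Hippo kinase LATS, stood at 9.68, 8.14, 9.86 and 10.6 FPKM in Tfap2cKD, against 3.35, 3.02, 2.86 and 2.75 FPKM in dsGFP. Ctgf, a YAP and TEAD target in many cells, stood at 11.9, 9.03, 10.6 and 11.4 FPKM in Tfap2cKD, against 1.39, 3.49, 5.12 and 4.82 FPKM in dsGFP. Amot, which encodes angiomotin, was low, with 0.427 ± 0.182 FPKM in Tfap2cKD and 2.22 ± 1.03 FPKM in dsGFP. Yap1 did not pass, at 4.62 ± 1.44 FPKM in Tfap2cKD and 4.59 ± 0.444 FPKM in dsGFP (adjusted p = 0.934).

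Among 51 integrins, tetraspanins and surface antigens, 16 fell and 9 rose. Tspan1 stood at 6.62, 3.78, 13.5 and 11.5 FPKM in Tfap2cKD, against 51.8, 38.5, 85.8 and 103 FPKM in dsGFP. Tspan14 averaged 2.71 ± 0.604 FPKM in Tfap2cKD and 7.32 ± 1.78 FPKM in dsGFP. Ly6g6e, of the same family as Ly6a, averaged 2.79 ± 1.67 FPKM in Tfap2cKD and 15.1 ± 5.37 FPKM in dsGFP. Of 14 annexins and S100 genes 6 fell and none rose, but 3 fell without Tfap2cKD B1, and in DoubleKD against Tead4KD 3 fell and 4 rose. S100a11 stood at 14.3, 12.98, 23.7 and 27.6 FPKM in Tfap2cKD, against 77.6, 55.4, 205 and 237 FPKM in dsGFP, and Anxa11 averaged 0.408 ± 0.192 FPKM in Tfap2cKD and 1.24 ± 0.267 FPKM in dsGFP. Of 25 extracellular matrix genes 5 fell and 4 rose (2 rose without Tfap2cKD B1). Loxl1, a collagen and elastin cross-linking enzyme gene, averaged 0.847 ± 0.199 FPKM in Tfap2cKD and 3.95 ± 0.384 FPKM in dsGFP, and Nid1, of basement membranes, 6.93 ± 1.65 FPKM in Tfap2cKD and 11.5 ± 1.495 FPKM in dsGFP.

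Genes for ion and water transport, which later fill the blastocyst cavity, fell in 8 and rose in 7 of 45 cases. Aqp3, an aquaglyceroporin gene, stood at 3.07, 3.09, 2.697 and 1.69 FPKM in Tfap2cKD, against 19.8, 13.8, 22.97 and 15.8 FPKM in dsGFP. Slc12a7, a potassium chloride cotransporter gene, stood at 2.601, 1.54, 2.96 and 3.14 FPKM in Tfap2cKD, against 9.92, 9.66, 12.9 and 15.9 FPKM in dsGFP. Kcns3, a potassium channel subunit gene, averaged 0.983 ± 0.546 FPKM in Tfap2cKD and 4.93 ± 0.448 FPKM in dsGFP. All Tfap2cKD libraries of these 3 genes lay below the dsGFP range, which their choice by low p favours. Atp6v1c2, a subunit of the vacuolar proton pump, was higher, with 14.96 ± 2.93 FPKM in Tfap2cKD and 3.83 ± 1.09 FPKM in dsGFP. Atp1b1, the sodium pump subunit that cavitation needs, did not pass, at 5.17 ± 1.16 FPKM in Tfap2cKD and 5.81 ± 1.55 FPKM in dsGFP (adjusted p = 0.676). Of 164 solute carriers 30 fell and 34 rose. The organic ion carrier gene Slc22a13 averaged 0.5697 ± 0.192 FPKM in Tfap2cKD and 5.505 ± 1.15 FPKM in dsGFP, and Slc25a22, a mitochondrial glutamate carrier gene, 1.53 ± 0.865 FPKM in Tfap2cKD and 7.74 ± 1.35 FPKM in dsGFP. At a share called of 22.2%, beside 29.6% of all genes tested, 4 of 18 ABC transporters rose and none fell. The neighbouring drug efflux pump genes Abcb1a and Abcb1b, close paralogs between which reads may be split with error, were both among these, with 38.9 ± 8.49 FPKM and 5.32 ± 0.703 FPKM in Tfap2cKD, against 19.2 ± 4.04 FPKM and 2.53 ± 0.6397 FPKM in dsGFP.

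The lysosome was the list of 20 or more measured genes with the largest share called, 62.2% against 29.6% of all genes tested. Of 45 genes, 19 fell and 9 rose, with a median log2 change of -0.25. Psap, the precursor of the saposins that activate sphingolipid breakdown, stood at 15.7, 17.5, 17.99 and 14.3 FPKM in Tfap2cKD, against 49.5, 44.5, 37.3 and 40.6 FPKM in dsGFP. Ctsa, the protective protein of lysosomal glycosidases, stood at 406, 429, 340 and 346 FPKM in Tfap2cKD, against 806, 757, 765 and 837 FPKM in dsGFP. Hexa, a subunit of β-hexosaminidase, averaged 7.43 ± 2.78 FPKM in Tfap2cKD and 27.2 ± 13.04 FPKM in dsGFP, and the protease gene Ctsh 22.5 ± 6.16 FPKM in Tfap2cKD and 56.2 ± 8.91 FPKM in dsGFP. Tfeb, the master regulator of lysosomal genes, stood at 0, 0.0775, 1.64 and 0.784 FPKM in Tfap2cKD, against 6.47, 6.28, 11.4 and 5.26 FPKM in dsGFP. All of these were below the dsGFP range in all 4 Tfap2cKD libraries, which their choice by low p favours, and passed in DoubleKD against Tead4KD. Of 40 autophagy genes 10 fell and 7 rose. Ulk1, the kinase that starts autophagy, averaged 14.3 ± 3.23 FPKM in Tfap2cKD and 32.6 ± 1.79 FPKM in dsGFP, and its complex partner Atg101 68.5 ± 4.37 FPKM in Tfap2cKD and 135 ± 15.2 FPKM in dsGFP. In a list of 41 Rab GTPases, 4 fell and 10 rose. Rab18, of lipid droplets and the endoplasmic reticulum, fell to 11.9 ± 2.22 FPKM in Tfap2cKD, against 36.8 ± 8.44 FPKM in dsGFP. Rab34 and Rab39 rose by 0.87 and 0.74 on the log2 scale.

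Of 35 genes of sphingolipid metabolism 13 fell and 7 rose. The falls include Smpdl3a, and also Psap and Hexa, which are counted with the lysosome as well. Sptssa, a small subunit of the enzyme that starts sphingolipid synthesis, stood at 23.4, 24.2, 17.8 and 18.2 FPKM in Tfap2cKD, against 67.4, 82.4, 70.7 and 74.3 FPKM in dsGFP. Of 40 genes of fatty acids and lipid droplets 8 fell and 7 rose. Agpat2, an acyltransferase of triglyceride synthesis, stood at 34.1, 28.2, 25.3 and 22.2 FPKM in Tfap2cKD, against 115, 97.7, 118 and 132 FPKM in dsGFP. Acadl, of fatty acid oxidation, averaged 34.1 ± 18.4 FPKM in Tfap2cKD and 118 ± 28.3 FPKM in dsGFP. Elovl6, a fatty acid elongase gene, averaged 22.8 ± 4.58 FPKM in Tfap2cKD and 52.2 ± 9.12 FPKM in dsGFP, and Apoe, a lipid carrier, 8.51 ± 0.671 FPKM in Tfap2cKD and 23.5 ± 2.06 FPKM in dsGFP. Sterol synthesis genes were more often higher than lower, with 7 of 20 genes higher and 1 lower. Sqle, squalene epoxidase, stood at 46.8, 45.9, 52.6 and 52.01 FPKM in Tfap2cKD, against 20.5, 18.3, 30.4 and 26.2 FPKM in dsGFP. Fdft1, squalene synthase, averaged 246 ± 19.3 FPKM in Tfap2cKD and 153 ± 25.9 FPKM in dsGFP. Neither gene's groups overlapped, which their choice by low p favours. Both also rose in DoubleKD against Tead4KD, by 0.78 and 0.49 on the log2 scale.

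One-carbon and amino acid metabolism was changed in 50% of its 52 measured genes, with 14 lower and 12 higher. Bhmt, which remethylates homocysteine with betaine, stood at 228, 236, 291 and 275 FPKM in Tfap2cKD, against 1197, 1388, 1047 and 1381 FPKM in dsGFP. Tyms, thymidylate synthase, stood at 128, 129, 159 and 181 FPKM in Tfap2cKD, against 390.5, 410.2, 389 and 582 FPKM in dsGFP. Amt, of the glycine cleavage system, averaged 21.9 ± 2.495 FPKM in Tfap2cKD and 76.2 ± 16.5 FPKM in dsGFP, and Bcat1, a branched-chain aminotransferase gene, 145 ± 18.1 FPKM in Tfap2cKD and 326 ± 16.2 FPKM in dsGFP. None of the 4 overlapped between groups, which their choice by low p favours, and all passed in DoubleKD against Tead4KD. Of 63 genes of glutathione, thioredoxin and metal defence 13 fell (8 without Tfap2cKD B1) and 14 rose. Gpx1, glutathione peroxidase, averaged 142 ± 22.6 FPKM in Tfap2cKD and 439 ± 90 FPKM in dsGFP. The neighbouring metallothionein genes Mt1 and Mt2 averaged 1040 ± 388 FPKM and 535 ± 274 FPKM in Tfap2cKD, against 2430 ± 643 FPKM and 1119 ± 376 FPKM in dsGFP. Of 37 genes of glycolysis and glucose uptake 9 fell and 2 rose, with a median log2 change of -0.02. The share called was 29.7%, beside 29.6% of all genes tested. Ugp2, which makes UDP-glucose, fell to 4.46 ± 0.944 FPKM in Tfap2cKD, against 12.01 ± 3.91 FPKM in dsGFP, and Pfkfb2, a regulator of glycolytic flux, to 0.245 ± 0.0985 FPKM in Tfap2cKD, against 2.26 ± 0.543 FPKM in dsGFP. Pkm, pyruvate kinase, was higher, with 19.8, 15.6, 7.003 and 11.04 FPKM in Tfap2cKD, against 5.697, 6.16, 4.86 and 4.76 FPKM in dsGFP.

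**Figure D4:**
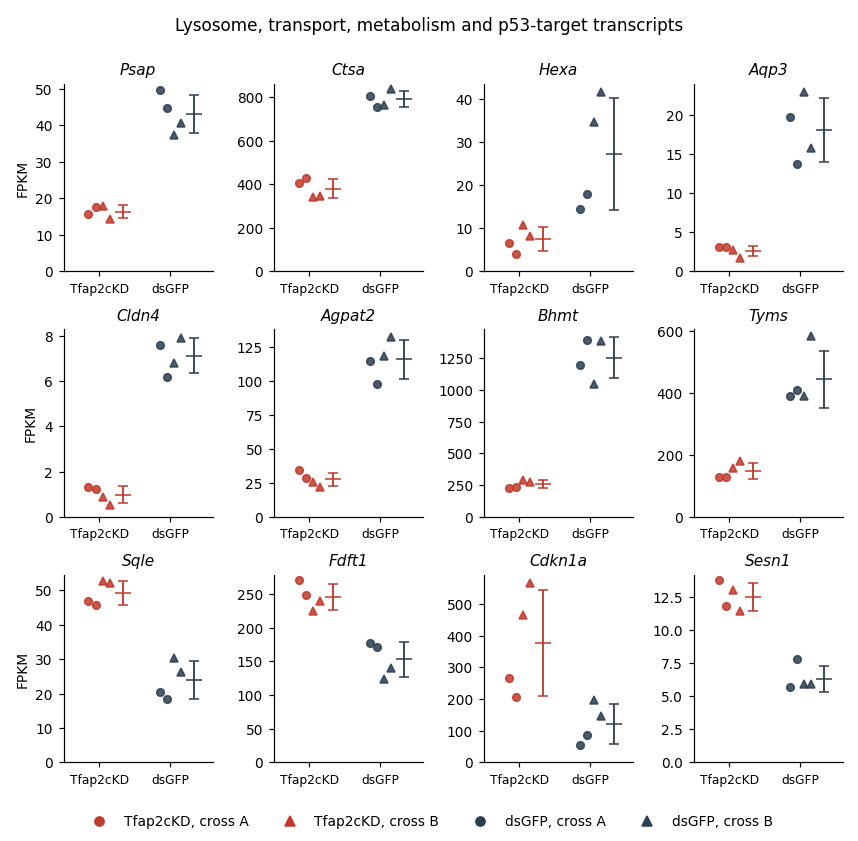
FPKM in each library (circles, cross A; triangles, cross B) of Tfap2cKD on the left of each panel and dsGFP on the right, with the mean and SD (n = 4) beside the points; every axis starts at 0. The first 8 panels, from Psap to Tyms, are lower in Tfap2cKD and the last 4, from Sqle to Sesn1, are higher, and in none do the groups overlap. The genes were among those of their lists with the lowest p, which favours this.

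Targets of the tumour suppressor p53 were more often higher than lower, with 14 of 35 higher and 4 lower (2 lower without Tfap2cKD B1) and a median log2 change of 0.48. Cdkn1a, which encodes the cell-cycle inhibitor p21, stood at 266, 207, 465 and 567 FPKM in Tfap2cKD, against 56.2, 87.8, 197 and 147 FPKM in dsGFP. Cross B libraries were higher than cross A libraries in both groups, and the log2 change was 1.66 ± 0.14 (adjusted p = 1.98e-06). Trp53 itself stood at 56.5, 44.8, 41.98 and 48.8 FPKM in Tfap2cKD, against 22.8, 23.6, 34.9 and 37.7 FPKM in dsGFP (adjusted p = 0.00569). The stress sensor gene Sesn1 averaged 12.5 ± 1.06 FPKM in Tfap2cKD and 6.31 ± 0.987 FPKM in dsGFP, and Ei24 64.9 ± 8.45 FPKM in Tfap2cKD and 23.6 ± 8.097 FPKM in dsGFP. Perp, a p53 target that is also a desmosomal membrane protein, was lower, with 10.8 ± 3.51 FPKM in Tfap2cKD and 37.05 ± 13.6 FPKM in dsGFP. In DoubleKD against Tead4KD 7 of the 35 were higher and 3 lower, with a median of 0.09. Of 42 apoptosis genes 11 rose and 7 fell. Those that fell include Birc3, an inhibitor of apoptosis, at 3.69 ± 1.13 FPKM in Tfap2cKD and 14.2 ± 1.57 FPKM in dsGFP, and the pro-apoptotic Bad, at 19.7 ± 3.22 FPKM in Tfap2cKD and 45.6 ± 4.75 FPKM in dsGFP. Bcl2l14, another Bcl2 family gene, averaged 71.1 ± 20 FPKM in Tfap2cKD and 169 ± 18.3 FPKM in dsGFP.

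Cell-cycle genes were called about as often as all genes, with 13 of 67 cyclins, kinases and regulators higher and 6 lower. Fbxo5, whose product Emi1 restrains the anaphase-promoting complex, stood at 22.6, 24.4, 29.2 and 31.9 FPKM in Tfap2cKD, against 54.6, 60.4, 73.1 and 79.4 FPKM in dsGFP. Anapc10, a subunit of that complex, averaged 52.2 ± 5.83 FPKM in Tfap2cKD and 132 ± 13.6 FPKM in dsGFP. E2f5, a repressor E2F, was higher, with 18.2 ± 4.74 FPKM in Tfap2cKD and 5.701 ± 1.99 FPKM in dsGFP. Of 60 spindle and centromere genes 15 fell and 7 rose. Cenpa, the centromeric histone gene, averaged 94.8 ± 4.93 FPKM in Tfap2cKD and 214 ± 17.7 FPKM in dsGFP, and the kinesin gene Cenpe 39.8 ± 6.97 FPKM in Tfap2cKD and 59.9 ± 4.46 FPKM in dsGFP, while the kinetochore scaffold gene Casc5 rose by 0.68 on the log2 scale. Of 125 genes of DNA replication and repair 22 fell and 15 rose, the same 29.6% called as over all genes tested. Chek1, the checkpoint kinase of S phase, averaged 19.4 ± 4.81 FPKM in Tfap2cKD and 36.1 ± 3.43 FPKM in dsGFP, and the repair scaffold gene Xrcc1 13.3 ± 1.94 FPKM in Tfap2cKD and 22.5 ± 6.05 FPKM in dsGFP. Gins3, of the replicative helicase, was higher, at 45.8 ± 5.98 FPKM in Tfap2cKD and 20.9 ± 1.48 FPKM in dsGFP.

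Among 113 chromatin modifiers of the Polycomb, Trithorax and histone-modifying families, 24 rose and 12 fell, a share called of 31.9%, near the 29.6% of all genes tested. Chd1, a remodeller of open chromatin, stood at 27.2, 26.6, 27.9 and 30.5 FPKM in Tfap2cKD, against 11.3, 13.8, 12.01 and 7.32 FPKM in dsGFP. Cbx1, which encodes HP1β, stood at 44.3, 36.9, 40.6 and 38.1 FPKM in Tfap2cKD, against 13.1, 10.3, 18.5 and 17.2 FPKM in dsGFP. Pcgf6, of a variant Polycomb complex, averaged 32.8 ± 2.73 FPKM in Tfap2cKD and 18.4 ± 1.55 FPKM in dsGFP. Ezh2, the methyltransferase of Polycomb repressive complex 2, was lower, with 31.4 ± 3.78 FPKM in Tfap2cKD and 54.7 ± 4.01 FPKM in dsGFP. Of 22 genes of DNA methylation 4 fell and 3 rose, a share called of 31.8%. Tet2, which oxidizes methylated cytosine, stood at 1.08, 0.956, 0.842 and 0.954 FPKM in Tfap2cKD, against 2.92, 3.65, 3.55 and 7 FPKM in dsGFP, and the de novo methyltransferase gene Dnmt3b averaged 2.32 ± 0.627 FPKM in Tfap2cKD and 4.94 ± 0.783 FPKM in dsGFP. Its cofactor Dnmt3l did not pass (adjusted p = 0.0639, and 0.0161 without Tfap2cKD B1, 0.0392 after quantile normalization). Of 64 histone and high-mobility-group genes 13 rose and 3 fell, a share called of 25%, below that of all genes tested. Hmgb1 and Hmga1 were higher by 0.61 and 1.24 on the log2 scale, and Hmga2 was lower by 0.96. Xist, the X-inactivation RNA, did not pass (adjusted p = 0.508). Of 25 imprinted genes 4 rose, H13 among them, and 4 fell, or 2 and 3 without Tfap2cKD B1. With all libraries the share called was 32%. Of 198 genes named Zfp 37 rose and 26 fell, a share called of 31.8%, also near that of all genes tested.

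**Figure D5:**
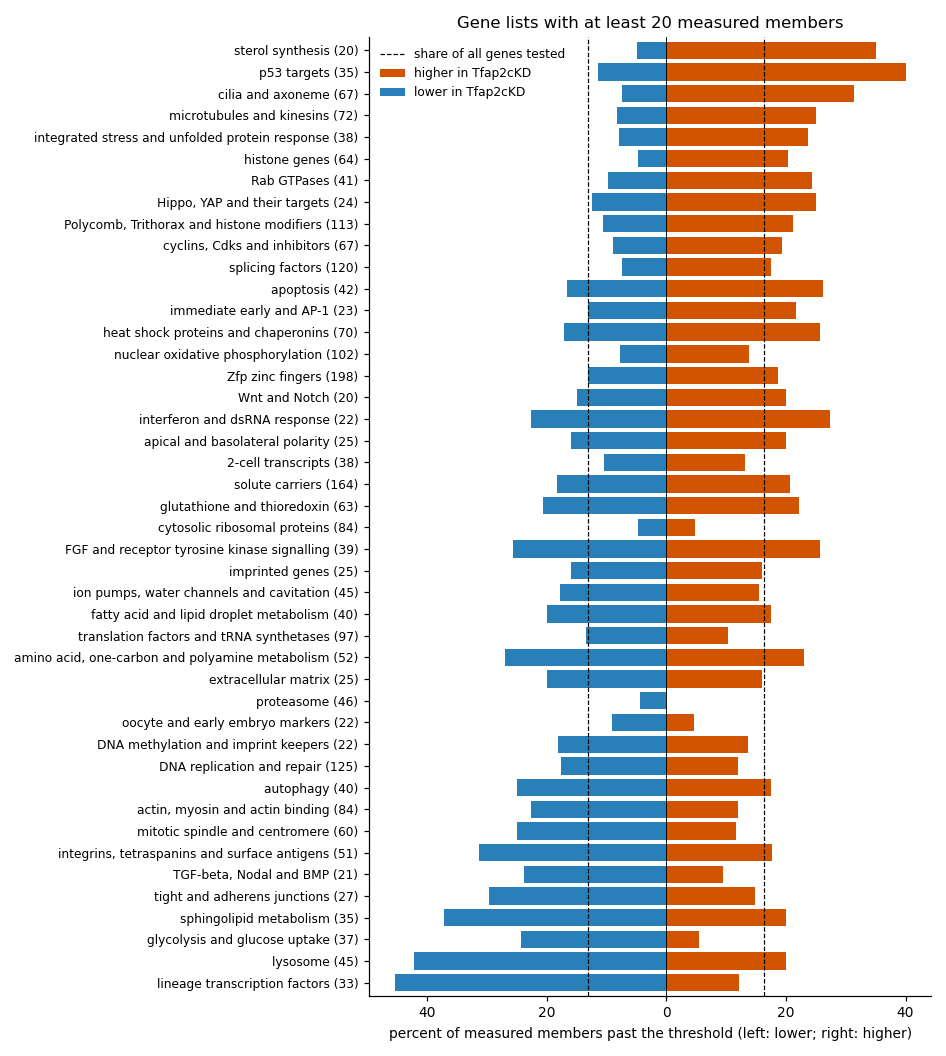
For the lists shown, of at least 20 measured members (number in brackets), bars give the percentage of members higher (orange, right) and lower (blue, left) in Tfap2cKD at an adjusted p under 0.05; dashed lines mark the share of all genes tested, 16.3% higher and 13.2% lower. Sterol synthesis and p53 targets lie at the top, with 7 of 20 and 14 of 35 higher, and lineage transcription factors and the lysosome at the bottom, with 15 of 33 and 19 of 45 lower. The 15 include Tfap2c, the target of the dsRNA.

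Of 72 genes of microtubules and kinesins 18 rose and 6 fell (4 fell without Tfap2cKD B1), a share called of 33.3% beside 29.6% of all genes tested. Of 67 genes of cilia and the axoneme 21 rose (14 without Tfap2cKD B1) and 5 fell, a share called of 38.8%. In DoubleKD against Tead4KD, 6 microtubule genes rose and 3 fell, and 9 cilium genes rose and 5 fell. Kif1b, a cargo kinesin gene, stood at 11.2, 11.7, 11.04 and 11.3 FPKM in Tfap2cKD, against 4.15, 5.21, 5.54 and 4.17 FPKM in dsGFP. Cep120, of centriole assembly, stood at 10.7, 12.02, 12.1 and 10.4 FPKM in Tfap2cKD, against 5.001, 4.55, 4.09 and 2.52 FPKM in dsGFP. The β-tubulin gene Tubb5 averaged 29.8 ± 10.1 FPKM in Tfap2cKD and 10.9 ± 1.44 FPKM in dsGFP, and Clip1, a tracker of growing microtubule ends, 5.62 ± 0.822 FPKM in Tfap2cKD and 2.15 ± 0.433 FPKM in dsGFP. Dync1li1, a dynein subunit gene, rose by 0.67 on the log2 scale. Dnaaf1, needed to assemble ciliary dyneins, was lower, with 8.602 ± 1.01 FPKM in Tfap2cKD and 17.1 ± 5.09 FPKM in dsGFP.

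Stress and innate response lists moved both ways. Of 23 immediate early genes 5 rose and 3 fell, and Nfkbia, the NF-κB inhibitor, stood at 15.2, 16.4, 17.7 and 16.98 FPKM in Tfap2cKD, against 5.11, 6.68, 5.85 and 8.05 FPKM in dsGFP. Of 38 genes of the integrated stress and unfolded protein responses 9 rose and 3 fell (2 fell without Tfap2cKD B1). In DoubleKD against Tead4KD 5 rose and 9 fell. The share called in Tfap2cKD was 31.6%, near the 29.6% of all genes tested. Edem1 and Dnajb9, of endoplasmic reticulum quality control, were higher by 1.06 and 0.58 on the log2 scale and Pdia4, a disulfide isomerase of that compartment, by 0.88. Mthfd2, a target of ATF4, was lower, with 6.47 ± 1.63 FPKM in Tfap2cKD and 15.2 ± 2.996 FPKM in dsGFP. Of 70 heat shock proteins and chaperonins 18 rose (12 without Tfap2cKD B1) and 12 fell, while 6 rose and 15 fell in DoubleKD against Tead4KD. The falls include the regulator Hsf2, with 7.78 ± 3.88 FPKM in Tfap2cKD and 24.6 ± 4.93 FPKM in dsGFP, and the co-chaperone Dnaja1, with 812 ± 64.2 FPKM in Tfap2cKD and 1278 ± 72.1 FPKM in dsGFP. Both groups had received dsRNA. In the list of the interferon response and dsRNA sensing, 6 of 22 genes were higher and 5 lower, while 0 were higher and 5 lower in DoubleKD against Tead4KD. Irf9, which mediates the type I interferon response, stood at 0.619, 1.43, 1.92 and 1.62 FPKM in Tfap2cKD, against 6.53, 5.89, 9.14 and 7.18 FPKM in dsGFP. Irf5 stood at 0.174, 0.152, 0.711 and 0.134 FPKM in Tfap2cKD, against 4.48, 3.07, 7.76 and 5.51 FPKM in dsGFP, and Ifitm2, a membrane restriction factor gene, averaged 26.6 ± 4.35 FPKM in Tfap2cKD and 62.97 ± 25.6 FPKM in dsGFP. These 3 genes fell in DoubleKD against Tead4KD too. Ifi27, of the same list, was higher, with 9.50 ± 2.55 FPKM in Tfap2cKD and 5.17 ± 2.24 FPKM in dsGFP, with overlap. It did not pass in DoubleKD against Tead4KD.

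Of 38 transcripts of the 2-cell stage 5 rose (3 without Tfap2cKD B1) and 4 fell, while 11 rose and 3 fell in DoubleKD against Tead4KD. The share called in Tfap2cKD was 23.7%, below the 29.6% of all genes tested. Pramef17 averaged 10.8 ± 1.83 FPKM in Tfap2cKD and 5.72 ± 0.788 FPKM in dsGFP, Zfp809, a silencer of retroviruses, 27.4 ± 9.57 FPKM in Tfap2cKD and 15.9 ± 2.21 FPKM in dsGFP, and the initiation factor gene Eif1a, which fell, 119.7 ± 12.4 FPKM in Tfap2cKD and 201 ± 15.7 FPKM in dsGFP. Of 22 measured oocyte and early embryo genes 1 rose and 2 fell (1 fell without Tfap2cKD B1), a share of 13.6% against 29.6% of all genes tested. Beside Dppa3 these were Npm2, which rose (adjusted p = 0.0102, and 0.161 without the cross covariate), and Padi6, which fell (adjusted p = 0.0153, and 0.0515 without Tfap2cKD B1, 0.0524 without dsGFP B1). The summed level of the marker list was 5681 to 6936 FPKM in Tfap2cKD and 7932 to 8802 FPKM in dsGFP, nearly all of it Dppa3. Blood markers were at 29.3 to 63.0 FPKM in Tfap2cKD and at 9.86 to 26.9 FPKM in dsGFP, most of it from the near-identical α-globin genes Hba-a1 and Hba-a2, while β-globin genes and Ptprc were at 0. Hba-a1 stood at 35.3, 40.8, 38.6 and 16.9 FPKM in Tfap2cKD, against 16.9, 13.9, 12.2 and 6.41 FPKM in dsGFP, and the part of other cells in this was not tested. Later endoderm markers summed to 3.54 to 12.2 FPKM in Tfap2cKD and to 5.12 to 11.2 FPKM in dsGFP.

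In the lists of this paragraph the share called was below the 29.6% of all genes tested. Of 84 cytosolic ribosomal protein genes 4 rose and 4 fell, but 8 rose and 2 fell without Tfap2cKD B1. Of 46 proteasome genes 2 fell, Psmc4 by 0.65 and Psmg2 by 0.37 on the log2 scale, and none rose (2 fell and 3 rose without Tfap2cKD B1). Of 13 mitochondrially encoded genes 1 fell, mt-Atp8 (adjusted p = 0.0495), and it did not pass with the replicate as a block (0.0696), nor under several other settings given below. Of 102 nuclear genes of oxidative phosphorylation 14 rose and 8 fell (5 fell without Tfap2cKD B1). The rises include Sdhc and Sdhd, which anchor complex II, by 0.72 and 0.95 on the log2 scale, and Atp5j of the ATP synthase fell by 0.56. Of 97 translation factors and tRNA synthetases 13 fell and 10 rose, the falls including Kars by 0.86 and Eif2b3 by 0.42. Of 120 splicing factors 21 rose and 9 fell, while 9 rose and 16 fell in DoubleKD against Tead4KD. Among the falls in Tfap2cKD was Rbm47, with 28.9 ± 3.25 FPKM in Tfap2cKD and 90.4 ± 12.7 FPKM in dsGFP.

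For 86 of the genes tested (0.753%), 63 of them changed in Tfap2cKD, the change differed with and without Tead4 dsRNA at an adjusted p under 0.05 (limma, DoubleKD minus Tead4KD against Tfap2cKD minus dsGFP). The change of Cdkn1a was 1.66 in Tfap2cKD and 0.36 in DoubleKD (adjusted p of the difference 0.0192), where Tead4KD was already at 287 ± 145 FPKM. Ezr changed by 1.23 in Tfap2cKD and by -0.80 in DoubleKD (adjusted p of the difference 0.0279). S100a11 changed by -2.62 in Tfap2cKD and by 1.31 in DoubleKD (adjusted p of the difference 0.00851), and Tead4KD stood at 10.3 ± 10.4 FPKM. Cnn3 and Abcb1a went the other way, with larger rises in DoubleKD, of 1.85 and 2.97, than in Tfap2cKD, of 0.88 and 0.97. These rises started from 51.9 ± 0.958 FPKM and 1.01 ± 0.466 FPKM in Tead4KD, against 149 and 19.2 FPKM in dsGFP. DoubleKD stood at 190 ± 15.2 FPKM and 14.8 ± 3.87 FPKM, below the Tfap2cKD means of 274 and 38.9 FPKM. Tekt2, Ier3, E2f5, Tubb5 and Pcgf6 rose more in Tfap2cKD than in DoubleKD. Of these, Ier3, Tubb5 and Pcgf6 did not pass in DoubleKD (adjusted p = 0.0502, 0.411 and 0.366), nor did Cdkn1a (0.0825). The log2 change of Vgll4, a TEAD cofactor gene, was -1.34 in Tfap2cKD and 0.09 in DoubleKD, and that of Zfp110, a zinc finger gene, -1.25 in Tfap2cKD and 0.07 in DoubleKD; neither passed in DoubleKD. Sgk1, a kinase gene, changed by -0.33 in Tfap2cKD and by 0.24 in DoubleKD. In Tfap2cKD, Vgll4 did not pass without the cross covariate (adjusted p = 0.0656), nor did Sgk1 after quantile normalization (0.0592). For the remaining genes named here the difference did not pass, which does not show that the changes were equal.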

How the data were processed

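Polyadenylated RNA of pooled 8-cell embryos was amplified by Smart-seq2 and made into libraries with a TruePrep kit, per the labels' protocols. The submitters' processing notes name the mm10 build and, as tools, STAR, Cufflinks, Trim Galore and CASAVA, with the role, version and annotation of each not given in the sources used here. FPKM values per gene were made by the authors and deposited as such. Of 43496 table lines 59 repeated an identifier and were summed, and 27 gene names that a spreadsheet had turned into dates were restored. Locations and promoter sequences are those of RefSeq for GRCm38.p6, and 10897 tested genes had a location.

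The test was limma 3.58.1 (R 4.3.3, eBayes with a trend) on log2(FPKM + 1) of all 16 libraries, with group and cross as terms, after a filter of 1 FPKM in 4 libraries. The threshold was a Benjamini-Hochberg adjusted p of 0.05 over 11422 genes, two-sided. Library measures, Tfap2c and Tead4 were tested by exact permutation. Absolute depth is unknown; relative depth ran from 0.874 to 1.12 of the mean, approximately. Libraries with the same replicate name deviated together from their group means (r = 0.193, 0.276, 0.216 and 0.282 for A1, A2, B1 and B2). Those deviations still hold the difference between crosses, and within crosses A and B the correlations were 0.131 and 0.176. The labels do not say that the names pair the libraries, and a fit with the name as a block was an alternative. Others were median-ratio and quantile scaling, a pseudocount of 0.1, other filters, no cross term, no variance trend, the 8 libraries alone, and leaving out each library in turn.

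The libraries, the 55 gene lists and the genes looked up were chosen with earlier results of these data known. Named genes were Tfap2c and Tead4, the 15 largest rises and falls without overlap that passed and had a mean of 5 FPKM in a group (clone names left out), up to 4 members of each list by lowest p, and genes always looked up. A few genes and a gene list are not reported here. The columns of samples from outside the series numbered 0.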

Additional observations from a re-analysis of the deposited data

Results flagged for a closer look

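Among 380 groups of 4 libraries checked (library measures and named genes in Tfap2cKD and dsGFP), 18 held 1 library far from the other 3, which chance gives in about 1 of 20 groups. In Tfap2cKD B1 the high values were those of Smpdl3a, at 12.8 FPKM against 1.081 to 1.597 FPKM in the other 3, Calm5 (9.35 FPKM), Gprc5a (4.00 FPKM), Arpc1b (1.69 FPKM), Irf5 (0.711 FPKM) and Ctnna1 (28.0 FPKM). Stambp was low in that library (8.85 FPKM). Other Tfap2cKD libraries stood apart in Gsta2 (A2, low, 9.13 FPKM) and Nr5a2 (B2, high, 33.7 FPKM). In dsGFP, B1 had 10504 genes at 1 FPKM against 10049 to 10079 in the others, and A2 had 12.1% of its FPKM on mitochondrially encoded genes. Single genes far from the others in dsGFP were Uchl1 (B2, low, 3.00 FPKM), Pou5f1 (A2, low, 30.0 FPKM), Klf11 (A1, high, 8.85 FPKM), Atg101 (A2, low, 112 FPKM), Tyms (B2, high, 582 FPKM), Sesn1 (A2, high, 7.79 FPKM) and Anapc10 (B1, low, 111 FPKM).

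For 13 named genes the change with Tead4 dsRNA minus the change without it, on the log2 scale, passed in limma over all genes tested. This difference was -1.67 for Tekt2, -1.76 for Ier3, -2.04 for Ezr, -1.29 for Cdkn1a, -1.02 for E2f5, -0.67 for Pcgf6 and -1.13 for Tubb5. It was 0.97 for Cnn3, 3.93 for S100a11, 1.99 for Abcb1a, 1.43 for Vgll4, 0.57 for Sgk1 and 1.32 for Zfp110.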

How the results depend on the processing

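Counts of changed genes fell with a mean filter of 5 FPKM, to 2189 (1188 higher, 1001 lower), and without the cross covariate, to 2165 (1154 higher). Over 2-fold, 771 genes became 1295 with a pseudocount of 0.1 and 455 with the 5 FPKM filter. Genes of at least 1 list, each counted once, were 450 higher and 405 lower, and 275 and 264 without the cross covariate. Leaving out 1 library at a time gave 2608 to 3158 changed genes (1375 to 1736 higher, 1221 to 1497 lower), 721 to 844 over 2-fold and 2105 to 2531 in DoubleKD against Tead4KD. With the replicate as a block, 3165 genes changed (1739 higher, 1426 lower), and 2484 in DoubleKD against Tead4KD; of the named genes the block changed the call of mt-Atp8 alone.

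Tead4 stayed at -0.791 without a filter on low values and did not pass there (adjusted p = 0.0541), and ran from -0.927 to -0.630 with 1 library left out.
Genes that did not pass changed sign without 1 library: Krt18 (range -0.106, without Tfap2cKD A1, to 0.251), Yap1 (-0.117 to 0.112, above 0 without Tfap2cKD A1, Tfap2cKD A2 or dsGFP A1) and Atp1b1 (-0.248 to 0.028, above 0 without dsGFP B1). The call of mt-Atp8 was lost after quantile normalization (0.0747), with a pseudocount of 0.1 (0.0502), without a filter (0.131), without the cross covariate (0.0651), without a variance trend (0.0585) and without Tfap2cKD A1 (0.123) or B2 (0.159) or dsGFP A2 (0.109), B1 (0.105) or B2 (0.132). Of 1870 list counts under the alternatives, 1642 were within 1.5 times the reported one. The cause was not tested in any of these. Depth is known only as a ratio, so no interval for low genes can be given.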

Other observations

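Other genes whose change differed with Tead4 dsRNA, chosen after their values were seen, include signalling and adaptor genes of the early embryo. Sh3d21 fell to 0.425 ± 0.351 FPKM in Tfap2cKD, against 7.802 ± 1.15 FPKM in dsGFP, and DoubleKD stood at 0.794 ± 0.569 FPKM with Tead4KD at 1.17 ± 0.344 FPKM. Dab2, an endocytic adaptor gene, averaged 45.4 ± 11.4 FPKM in Tfap2cKD and 72.9 ± 13.9 FPKM in dsGFP, which did not pass (adjusted p = 0.0964), while it rose to 16.8 ± 8.47 FPKM in DoubleKD, against 4.703 ± 3.702 FPKM in Tead4KD. Fgf3, an FGF ligand gene, averaged 11.6 ± 5.36 FPKM in Tfap2cKD and 4.09 ± 2.203 FPKM in dsGFP, against 15.5 ± 7.403 FPKM in DoubleKD and 14.5 ± 6.54 FPKM in Tead4KD. Khdc3, of the subcortical maternal complex, averaged 61.9 ± 9.59 FPKM in Tfap2cKD and 45.3 ± 8.73 FPKM in dsGFP, which did not pass (adjusted p = 0.132), but 31.2 ± 13.7 FPKM in DoubleKD and 85.1 ± 28.8 FPKM in Tead4KD. The adjusted p of the difference between both changes was 0.00112 for Sh3d21, 0.0262 for Dab2, 0.0262 for Fgf3 and 0.0225 for Khdc3 (limma).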
